A study of Sus scrofa with 2 samples.

Results

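The antioxidant and glutathione genes are the enzymes and proteins that remove superoxide and peroxides, make and recycle glutathione, keep thiols reduced and couple glutathione to toxic compounds. Members were chosen by name and not by their measured values: superoxide dismutases, catalase, peroxiredoxins, glutathione peroxidases, thioredoxin-related genes, the alpha, mu, omega, pi, theta and microsomal glutathione S-transferases, the genes of glutathione synthesis and reduction, and NFE2L2 with its targets NQO1 and HMOX1. The rule found 50 of the 27622 features listed, which carry 49 symbols because TXNL4B stands for a pair of features. The question was whether these genes were expressed at other levels in the cochlear lateral wall, which carries the stria vascularis (SV), of pigs homozygous for a mutation of MITF.

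The study compared albino, deaf Rongchang pigs, homozygous for the r allele (MITF r/r), with heterozygous pigs (MITF R/r). The r allele carries short insertions upstream of the exon that begins the melanocyte isoform of MITF, the transcription factor on which pigment cells depend. By the study's methods, RNA came from whole lateral walls that included the SV, whereas the labels name the tissue as SV alone, and 1 library per genotype was sequenced. The labels give the age as P1 for both libraries, whereas the study's text places its RNA-seq at an embryonic stage, and whether animals were pooled is not stated. The heterozygote is the control, and it carries the r allele too. Expression was given as RPKM, the reads on a feature scaled to its length and to the depth of the library, so that levels can be set side by side between genes. The RPKM values gave depths of 15829244 reads in the R/r library and 14258672 reads in the r/r library. Reads recovered for the features came to 89.3% of the depth in each. They are the smallest numbers that fit the values, so the true share may be higher. With 1 library per genotype no difference has a replicate check and no p-value is given. Values compare the libraries themselves, not the genotypes.

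Superoxide dismutases turn superoxide into hydrogen peroxide, which catalase, peroxiredoxins and glutathione peroxidases then reduce to water. Peroxiredoxins are recharged by thioredoxin and glutathione peroxidases by glutathione, both with electrons that come from NADPH, and the transcription factor NRF2 (gene NFE2L2) switches on many of these genes once it escapes its partner KEAP1. The SV has a high metabolic rate and a dense capillary bed, and antioxidant enzymes in the cochlea are known for their part in limiting damage by noise and by ototoxic drugs.

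The tissue label was checked against markers. COCH, made by fibrocytes of the lateral wall, had 6826 RPKM in the R/r library and 4914 RPKM in the r/r library, and KCNE1, a potassium channel subunit of marginal cells, had 278 and 248 RPKM. The MITF feature with the highest level, ENSSSCG00000011513, had 51.7 and 37.8 RPKM, values that do not separate the isoforms. Melanocyte markers separated the libraries: in the r/r library 8 of the 12 compared were lower by 2-fold or more, with a median log2 ratio of -5.01. Their summed level was 363 RPKM in the R/r library and 62.2 RPKM in the r/r library, and DCT, the most abundant, had 171 and 1.19 RPKM. KIT, SOX10, RAB27A and OCA2, the other markers compared, were less than 2-fold apart. KIT had 43.6 RPKM in the R/r library and 44.2 RPKM in the r/r library, the largest part of the r/r sum. MLANA, a defining melanocyte marker, had 12.03 RPKM in the R/r library, whereas the r/r library listed it at 0.

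Marker lists of other cell types also differed between the libraries. Of 12 bone genes, 11 were lower in the r/r library, with summed levels of 1066 and 697 RPKM, a median log2 ratio of -0.70 and IBSP as the most abundant gene. All 5 red blood cell genes compared were lower, with sums of 3053 and 2465 RPKM, a median of -0.28 and HBB as the most abundant. Among Schwann cell genes, 3 of 5 were at least 2-fold lower, with a median of -1.73, whereas the most abundant, S100B, had 6091 and 6272 RPKM. The 5 marginal cell genes had a median of -0.31 and sums of 1586 and 1168 RPKM, with ATP1B2 as the most abundant, and the 5 genes of basal cells and fibrocytes had a median of -0.25 and sums of 8230 and 6152 RPKM, of which COCH made up most. These lists lay mostly lower in the r/r library.

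The other lists gave smaller or mixed differences or rested on few genes. The 8 macrophage genes had a median of -0.11 and sums of 77.1 and 73.7 RPKM, with C1QC as the most abundant. The 6 endothelial genes had a median of -0.08 and sums of 227 and 219 RPKM, led by CLDN5. The muscle list, with 5 genes compared, had a median of -0.10 and sums of 58.0 and 82.3 RPKM, led by MYH6 (19.2 and 40.1 RPKM), whereas MYH1 of the same list had 2.98 and 0.445 RPKM, a log2 ratio of -2.74, and MYL1 was listed at 0 in both libraries. Only 3 of 10 neutrophil genes were compared, all lower with a median of -0.85, and LCN2, at 105 and 51.3 RPKM, made up most of the sums of 114 and 57.2 RPKM. The defining neutrophil gene MPO was near 0, at 0.256 and 0.0813 RPKM, and CAMP was listed at 0 in both.

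**Figure D1:**
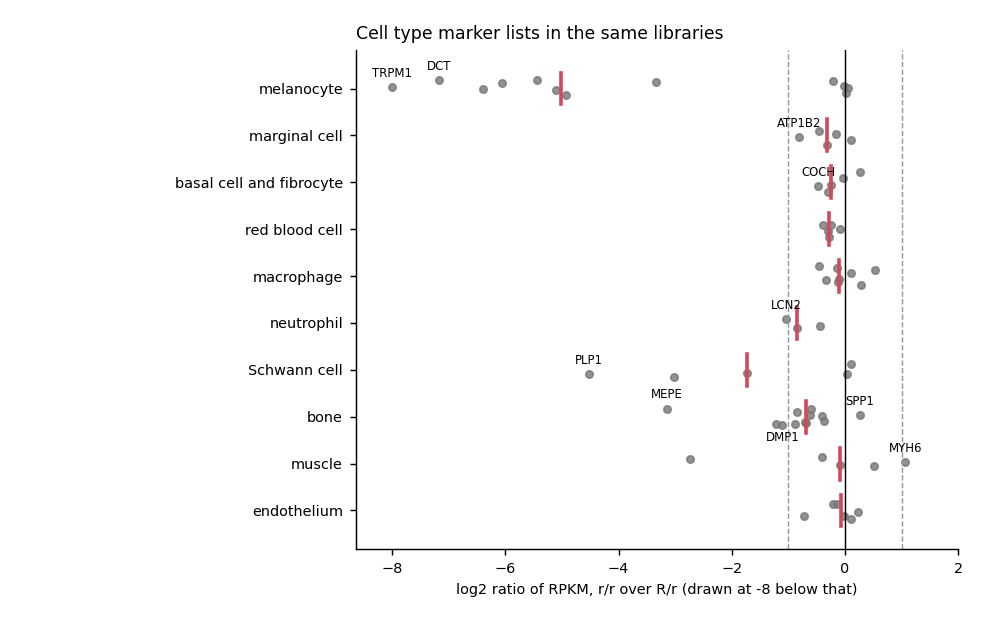
Log2 ratio of RPKM, r/r over R/r, for marker genes compared, by cell type (1 point per gene, red bars at list medians, dashed lines at 2-fold, vertical scatter within a list without meaning). Most melanocyte genes reach far to the left, with TRPM1 drawn at the edge of the axis, and the bone and red blood cell lists lie mostly below 0.

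Because the samples are bulk tissue, fewer cells of a type and less RNA per cell cannot be told apart for any gene below. The part of these other cell types in the differences of the antioxidant genes was not tested. From electron microscopy and RNA-seq the study concluded that r/r SVs kept intermediate cells before birth and lost them around birth.

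Of the 50 antioxidant and glutathione features, 44 were compared, which required a value above 0 in both libraries and at least 1 RPKM in one. None of the 44 was at least 2-fold apart, against 3.99% of the 16331 features compared over the whole table. A single member, GPX3, was at least 1.5-fold apart, against 10.8% of all features. Members were well expressed, with median levels of 47.7 and 47.0 RPKM against 10.4 and 10.05 RPKM for all features compared, and low features differ more through counting error alone. Among features with at least 10 RPKM in one library the shares were 1.01% at 2-fold and 3.34% at 1.5-fold, and of the 39 members there GPX3 alone was 1.5-fold apart, a share near the background.

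The members lay as often on one side as on the other, 22 lower and 22 higher in the r/r library, and 5 of these with ratios close to 0 (GPX2, GPX4, GPX8, PRDX4 and TXNL4A) lay on the other side under other scalings of the libraries. Their median log2 ratio was 0.00, against -0.02 over all features compared. The median size of the log2 ratio, whatever its sign, was 0.10 for members and 0.15 for all features, and 0.10 and 0.11 where 10 RPKM was reached. Between the log2 levels of R/r and r/r, Pearson r was 0.992 across the 44 members, genes that are not independent replicates, and 0.972 across all features compared.

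Intervals on the log2 ratios were exact Clopper-Pearson 95% intervals from the recovered reads and cover counting error only. They lay wholly below 0 for 7 members, against 14.5% of all features, and wholly above 0 for 9 members, against 11.2%. Scaled to TPM, which moves every ratio alike, the intervals of CAT, TXN and NFE2L2 spanned 0 and those of SOD2 and TXNRD1 lay below it, which made 9 members below 0 and 6 above. Centred on the median or scaled by the upper quartile, MGST3 joined those above, 10 in all. Members had more reads than most features, a median of 1683 over both libraries against 449, so that smaller differences can clear their intervals. Of the 44 intervals, 37 lay wholly within 1.5-fold and 42 wholly within 2-fold. How many of all features did so was not counted. Only the interval of GPX3 lay wholly beyond 1.5-fold, 1 of 44 members beside 291 of 16330 features, a share near the background. In sum, the 50 features made up 0.674% of all RPKM in R/r and 0.668% in r/r.

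**Figure D2:**
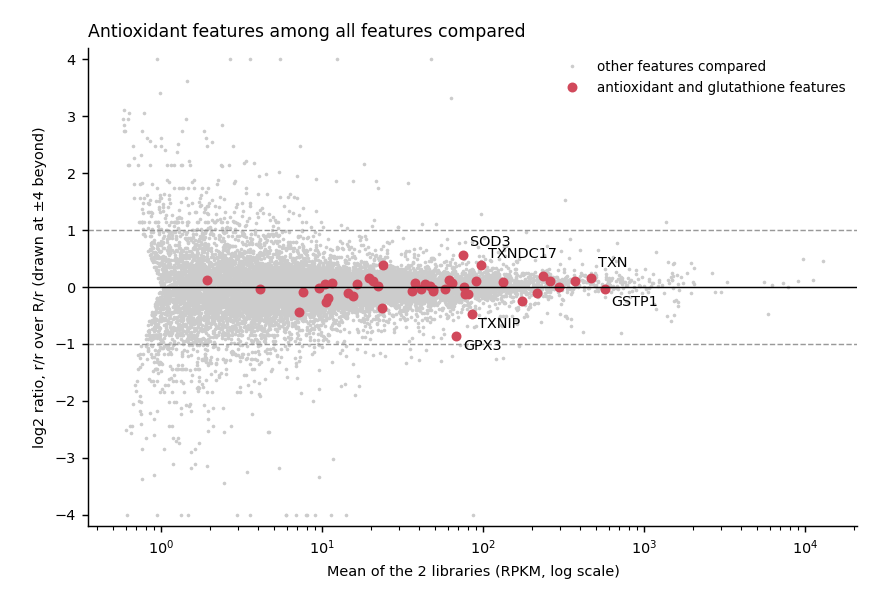
Log2 ratio of RPKM, r/r over R/r, against the mean RPKM of the libraries (log scale) for all features compared (grey) and the 44 antioxidant and glutathione features (red), with dashed lines at 2-fold. The red points stay between the dashed lines, with GPX3 lowest and SOD3 highest.

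The superoxide dismutases differ in where they work. SOD1, the copper and zinc enzyme of the cytosol, was the most abundant, with 356 RPKM in the R/r library and 381 RPKM in the r/r library (log2 ratio 0.10, 95% interval 0.04 to 0.16). SOD2, the manganese enzyme of mitochondria, had 83.8 and 76.8 RPKM (-0.13, -0.27 to 0.02). SOD3 (ENSSSCG00000028814), the secreted enzyme that binds the extracellular matrix, had 60.2 RPKM in the R/r library and 89.4 RPKM in the r/r library.

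SOD3 was thus 1.49-fold higher in the r/r library, at a log2 ratio of 0.57 (0.45 to 0.69; 980 and 1311 reads), the highest ratio among the 44 members compared. Among features with at least 10 RPKM in one library, 125 of 8605 had a ratio as high. With ratios centred on the median of all features SOD3 passed 1.5-fold, at a log2 ratio of 0.59, which brings the members at least 1.5-fold apart from 1 to 2. The order of levels within the family also differed between the libraries. SOD3 stood at 0.719 times the level of SOD2 in the R/r library and at 1.16 times in the r/r library.

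Catalase and the peroxiredoxins break down hydrogen peroxide. CAT, the peroxisomal catalase, had 87.3 RPKM in the R/r library and 93.5 RPKM in the r/r library (0.10, 0.03 to 0.17). The cytosolic PRDX1 had 219 and 249.9 RPKM, the highest ratio of the group at 0.19 (0.12 to 0.26). PRDX2, its cytosolic relative and the most abundant of the group, had 249 and 269 RPKM (0.11, 0.04 to 0.17). Each of these was higher in the r/r library by less than 1.2-fold, and the interval of CAT, though not those of PRDX1 and PRDX2, spanned 0 when scaled to TPM.

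The mitochondrial PRDX3 had 79.7 and 73.6 RPKM, the lowest ratio of the group at -0.12 (-0.19 to -0.04). PRDX6, a peroxiredoxin with a single active cysteine that can also use glutathione, had 223 and 207 RPKM (-0.11, -0.14 to -0.07). PRDX4, which resides in the endoplasmic reticulum, had 75.2 and 75.4 RPKM, and PRDX5, found in several compartments, had 58.6 and 57.6 RPKM. The intervals of PRDX4 and PRDX5 spanned 0. As a group, catalase and the peroxiredoxins summed to 992 RPKM in the R/r library and 1026 RPKM in the r/r library.

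Glutathione peroxidases showed the widest spread of any role among the members compared. GPX3 (ENSSSCG00000017092), the secreted peroxidase of plasma and extracellular fluid, had 87.5 RPKM in the R/r library and 48.5 RPKM in the r/r library. It was 1.80-fold lower in the r/r library, and its log2 ratio was -0.85 (-1.003 to -0.70), counted on 1096 and 547 reads. It ranked 1025 of 27622 features by level in R/r, and 2096 in r/r. Among features with at least 10 RPKM in one library, 75 of 8605 had a ratio as low.

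The lower GPX3 level stood beside cell type marker lists whose medians were all lower in the r/r library, with the list values given above. The medians ran from -5.01 for melanocyte genes to -0.08 for endothelial genes, and the neutrophil list rested on 3 genes compared. The part of these cell types in the GPX3 level was not tested. The level of SOD3 was 0.688 times that of GPX3 in the R/r library and 1.84 times in the r/r library, so that the order of these secreted enzymes differed between the libraries.

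GPX4, the peroxidase that reduces lipid hydroperoxides within membranes, was the most abundant of the glutathione peroxidases measured and had nearly the same level in both libraries; GPX1 was not analysed here. It had 295.4 and 294.8 RPKM, a log2 ratio of 0.00 with an interval from -0.12 to 0.11. GPX4 therefore stood at 3.37 times the level of GPX3 in the R/r library and at 6.08 times in the r/r library. GPX7, a peroxidase of the endoplasmic reticulum, had 20.7 and 27.1 RPKM, the highest ratio of the family at 0.39 (0.10 to 0.68). GPX8, its membrane-bound relative in the same compartment, had 46.3 and 46.8 RPKM, with an interval that spanned 0.

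GPX2 and GPX6 were low. GPX2, best known from the gut epithelium, had 9.57 and 9.46 RPKM. GPX6 had 8.18 and 6.05 RPKM from 18 and 12 reads, and its interval, -1.62 to 0.70, was too wide to show a difference of that size. GPX5, known from the epididymis, was listed at 0 in both libraries. FTL, a ferritin gene that nearly every cell uses, was also listed at 0 in both, so that a 0 in the table may mean that a gene was not counted.

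The thioredoxin system passes electrons from NADPH through thioredoxin reductases to thioredoxin. TXN, the cytosolic thioredoxin, had 442 RPKM in the R/r library and 492 RPKM in the r/r library (0.16, 0.02 to 0.29), the highest ratio of the group. TXNIP (ENSSSCG00000006681), which binds thioredoxin and blocks its active site, had 98.3 RPKM in the R/r library and 70.9 RPKM in the r/r library. It was 1.39-fold lower, at a log2 ratio of -0.47 (-0.54 to -0.41), counted on 4703 and 3053 reads. The interval of TXN spanned 0 when scaled to TPM, and that of TXNIP lay below 0 in every scaling tried. TXN stood at 4.49 times the level of TXNIP in the R/r library and 6.95 times in the r/r library.

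TXN2, the mitochondrial thioredoxin, had 41.5 and 40.4 RPKM, and TXNRD1, the cytosolic reductase, had 49.5 and 47.3 RPKM. TXNRD2, the mitochondrial reductase, had 10.15 and 10.5 RPKM. These 3 had intervals that spanned 0. TXNRD3, a reductase that also carries a glutaredoxin domain, had 11.5 and 9.59 RPKM (-0.26, -0.50 to -0.02).

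Proteins with a thioredoxin-like fold formed the largest group, with 11 features, and serve in protein folding, splicing or signalling more than in the removal of peroxides. TXNDC17 (ENSSSCG00000017891), a small cytosolic protein that thioredoxin reductase keeps reduced, was the most abundant and stood apart. It had 83.4 RPKM in the R/r library and 109.7 RPKM in the r/r library, 1.32-fold higher, at a log2 ratio of 0.40 (0.19 to 0.60), counted on 363 and 430 reads. The other compared members of the group had intervals that spanned 0.

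TXNL1, a thioredoxin-like protein of the cytosol, had 62.2 and 65.3 RPKM, and TXNDC12, of the endoplasmic reticulum, had 49.2 and 48.1 RPKM. TXNDC15 had 36.8 and 38.7 RPKM, and TXNDC9 had 36.8 and 34.9 RPKM. TXNL4A, a component of the spliceosome, had 22.003 and 22.3 RPKM. TXNDC11, the lowest ratio of the group at -0.09 (-0.40 to 0.21), had 7.77 and 7.29 RPKM.

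The lowest levels of the group lay near or under the limit for comparison. TXNL4B had 1.82 and 1.998 RPKM in 1 feature and 0.316 and 0.676 RPKM in the other (ENSSSCG00000025218), which was not compared. TXNDC8 was listed at 0 in both libraries. TXNDC2, known from sperm, was listed at 0 in the R/r library, where 3 reads would be 0.114 RPKM, whereas the r/r library held 1 read, or 0.042 RPKM, so that no difference could be detected at this depth.

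**Figure D3:**
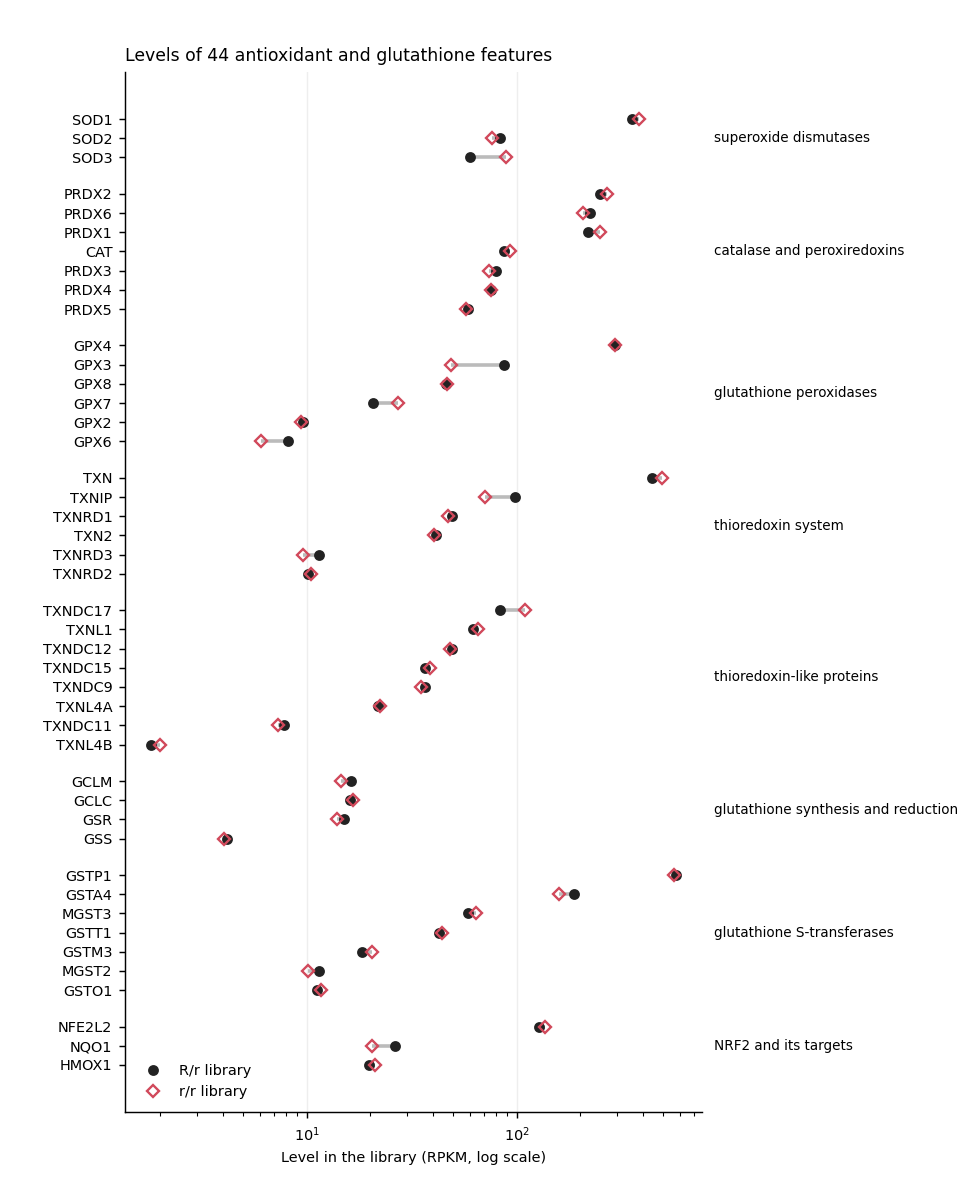
RPKM (log scale) of the 44 compared features in the R/r library (filled circles) and the r/r library (open diamonds), by role and, within a role, by level in the R/r library. GSTP1, TXN, SOD1 and GPX4 are the most abundant, and the bars joining the libraries are longest for GPX3, SOD3, TXNIP and GPX6.

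Genes of glutathione synthesis and reduction were low beside most other members and differed little. GCLC, GCLM and GSR nonetheless lay above the median level of all features compared. GCLC, the catalytic subunit of the enzyme that joins glutamate and cysteine, had 16.1 RPKM in the R/r library and 16.7 RPKM in the r/r library (0.05, -0.08 to 0.18). GCLM, its regulatory subunit, had 16.3 and 14.7 RPKM (-0.15, -0.36 to 0.06). These subunits had like levels, with GCLC at 0.990 times the level of GCLM in the R/r library and 1.14 times in the r/r library.

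GSS, which adds glycine to complete glutathione, had 4.17 and 4.07 RPKM (-0.04, -0.28 to 0.21). GSR, which returns oxidised glutathione to its reduced form, had 15.005 and 14.0 RPKM (-0.10, -0.42 to 0.22). All 4 intervals of this role spanned 0 and lay within 1.5-fold, so that a difference of 1.5-fold would have been larger than counting error allows.

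Glutathione S-transferases couple glutathione to reactive compounds, and GSTP1, of the pi class, had the highest level of all members. It had 574 RPKM in the R/r library and 562 RPKM in the r/r library (-0.03, -0.13 to 0.07), rank 120 and rank 130 of all features. GSTA4, an alpha-class enzyme that clears hydroxynonenal formed from oxidised lipids, had 189 and 159.6 RPKM, the lowest ratio among compared members of the role at -0.24 (-0.31 to -0.17). Its interval lay below 0 in every scaling tried.

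MGST3, a microsomal enzyme, had 58.5 and 64.0 RPKM, and GSTT1, of the theta class, had 42.6 and 44.2 RPKM. GSTM3, of the mu class, had 18.3 and 20.5 RPKM, the highest ratio among them at 0.16 (-0.09 to 0.42). GSTO1 and MGST2 lay between 10.1 and 11.7 RPKM in both libraries. GSTO2 and GSTT4 stayed under 1 RPKM in both and were not compared.

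Reads of this family may be shared among near-identical copies, which makes values of single transferases uncertain. Outside the naming rule, 4 features without a symbol were described in the table as glutathione S-transferase and were looked at after the values were seen. The most abundant of them, ENSSSCG00000002623, had 6.99 and 7.26 RPKM.

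NFE2L2 encodes NRF2, and its protein is governed mainly by how fast it is degraded, which RNA levels do not show. It had 128 RPKM in the R/r library and 136 RPKM in the r/r library (0.09, 0.03 to 0.16), with an interval that spanned 0 when scaled to TPM. NQO1 (ENSSSCG00000002754), a quinone reductase and well-known NRF2 target, had 26.3 and 20.5 RPKM. It was 1.28-fold lower in the r/r library, at a log2 ratio of -0.36 (-0.53 to -0.19), counted on 705 and 495 reads.

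HMOX1, the inducible enzyme that degrades haem, had 19.9 and 21.3 RPKM (0.10, -0.12 to 0.31). Of these NRF2 targets, NQO1 was lower in the r/r library and HMOX1 had an interval that spanned 0.

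**Figure D4:**
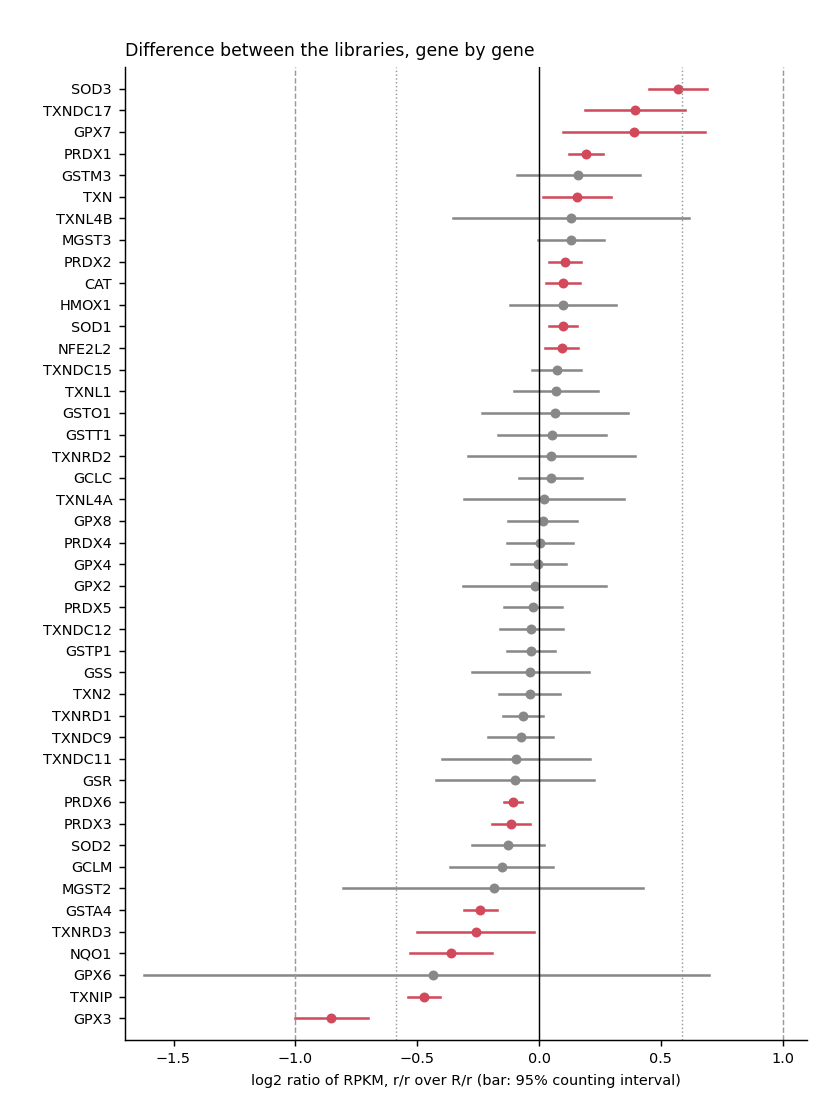
Log2 ratio of RPKM, r/r over R/r, with its 95% counting interval for each of the 44 compared members, in order of the ratio (red where the interval leaves out 0; dotted lines at 1.5-fold, dashed lines at 2-fold). GPX3 lies lowest at -0.85 and SOD3 highest at 0.57, and 28 intervals span 0.

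Grouped by where the proteins reside, the widest spread among members compared was among secreted enzymes. GPX3, GPX6 and SOD3, the 3 extracellular members compared, had log2 ratios of -0.85, -0.43 and 0.57, and their summed level with GPX5 was 156 RPKM in the R/r library and 144 RPKM in the r/r library. The 4 mitochondrial members, SOD2, PRDX3, TXN2 and TXNRD2, ranged from -0.13 to 0.05 with sums of 215 and 201 RPKM. Of the 20 cytosolic members compared, 10 were lower and 10 higher, with sums of 2727 and 2790 RPKM. The 8 members of the endoplasmic reticulum ranged from -0.18 to 0.39. The groupings by role and by compartment were made after the values were seen.

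Other genes of the redox network were taken from 8 lists with 143 names, of which 123 were in the table and 107 were compared. Of these, 1 was lower by 2-fold or more in the r/r library and none was higher by as much, beside 3.99% of all features compared. At 1.5-fold, 5 were lower and 2 higher, together 6.54% beside 10.8% of all features compared. Low features raise these background shares, which were 1.01% and 3.34% among features with at least 10 RPKM in one library. The network genes were not counted separately at that level. The median log2 ratio over the 107 genes was 0.00.

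AOX1, aldehyde oxidase, which releases superoxide and hydrogen peroxide as it works, had 95.4 RPKM in the R/r library and 47.2 RPKM in the r/r library. It was 2.02-fold lower, at a log2 ratio of -1.02 (-1.08 to -0.95), counted on 6576 and 2927 reads. Centred on the median of all features AOX1 stood just under 2-fold, at -0.999, so that no network gene was then 2-fold apart. Its list of superoxide and peroxide sources had a median of -0.12 over 11 genes, of which 7 were lower. The cell type lists lower in the r/r library stood beside AOX1 as beside GPX3, and their part was not tested. CYBB, the catalytic subunit of the phagocyte NADPH oxidase, had 5.15 and 3.43 RPKM, and NCF1, a cytosolic subunit of the same oxidase, had 2.80 and 1.86 RPKM. Both were at least 1.5-fold lower, NCF1 with an interval that spanned 0 (-1.52 to 0.30), and both fell short of 1.5-fold, at -0.57 and -0.58, when centred on the median and scaled by the upper quartile. CYBB and NCF1 are expressed by macrophages and neutrophils. The 8 macrophage genes compared had the median of -0.11 given above, 5 of them lower and 3 higher in the r/r library. They ranged from CSF1R at -0.47 (-0.70 to -0.24) to LYZ at 0.52 (-0.07 to 1.13). The 3 neutrophil genes compared had the median of -0.85 given above, with MPO near 0. The part of those cells was not tested.

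Genes of copper, iron and metal handling had a median of 0.07 over 10 genes. MT3, a metallothionein that binds zinc and copper, was the most abundant, with 239 RPKM in the R/r library and 368 RPKM in the r/r library (0.63, 0.53 to 0.73). HAMP, which encodes the iron hormone hepcidin, had 33.4 and 50.8 RPKM (0.61, 0.37 to 0.85), and was under 1.5-fold, at 0.57, when scaled to TPM. MT3 and HAMP were the 2 network genes whose r/r level was higher by 1.5-fold or more.

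Glutathione turnover and precursor supply had a median of -0.04 over 21 genes, 12 of them lower. SLC1A1, a transporter of glutamate and cysteine, had 1.11 and 0.682 RPKM (-0.70, -1.25 to -0.17). DPEP1, a dipeptidase that splits the cysteine and glycine released from glutathione, had 3.66 and 2.34 RPKM (-0.65, -1.18 to -0.13). Both lay at low levels. SLC3A2, the heavy chain of the cystine transporter and the most abundant gene of the list, had 131 and 147 RPKM (0.17, 0.11 to 0.23). SLC7A11, the light chain, named after its value was seen, went the other way, with 87.8 and 72.6 RPKM (-0.27, -0.41 to -0.14). GGCT was listed at 0 in both libraries.

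The remaining lists had no gene at least 1.5-fold apart in the values as deposited, and 1 gene, ALDH1L1, named after its value was seen, passed that mark when scaled to TPM, at -0.61. NRF2 regulators and partners had a median of -0.12 over 11 genes, with SQSTM1, an autophagy receptor that can displace NRF2 from KEAP1, the most abundant at 223 and 216 RPKM. DPP3 of that list was listed at 0 in both libraries. NADPH supply enzymes had a median of 0.02 over 16 genes and were led by TKT, transketolase, at 106 and 102 RPKM.

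Glutaredoxins, sulfiredoxin, methionine sulfoxide reductases and related selenoproteins had a median of 0.07 over 16 genes, 12 of them higher. SEPP1, the secreted carrier of selenium, was the most abundant of them, with 468 and 526 RPKM (0.17, 0.14 to 0.20). Other glutathione S-transferases had a median of 0.01 over 6 genes, with GSTZ1 at 34.4 and 40.6 RPKM (0.24, 0.06 to 0.41) and HPGDS listed at 0 in both libraries. Other NRF2-linked detoxification enzymes had a median of 0.01 over 16 genes, led by EPHX1, an epoxide hydrolase, at 232 and 275 RPKM (0.25, 0.13 to 0.37).

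**Figure D5:**
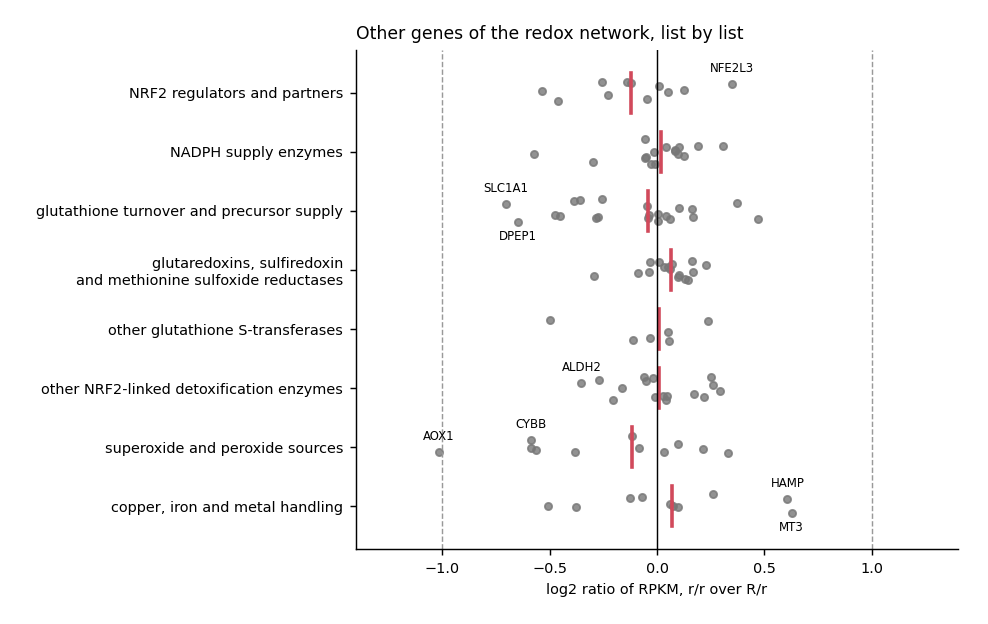
Log2 ratio of RPKM, r/r over R/r, for the 107 other redox genes compared, by list (1 point per gene, red bars at list medians, dashed lines at 2-fold, vertical scatter within a list without meaning). AOX1 lies beyond the lower dashed line, and MT3 and HAMP lie highest.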

How the data were processed

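RNA of the cochlear lateral wall with the SV was sequenced in 1 library each of the Mitf R/r and r/r genotypes. The authors deposited 1 table of RPKM values. The submitters' processing notes name TopHat2 2.0.7 and the pig build Sscrofa10.2, and the counting program and its use of strand are not given in the sources used here. A further 2 columns without headings, with values for 22 features, hold the authors' differences and ratios between the libraries and were not used.

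Log2 ratios of RPKM set the r/r over the R/r value, with no pseudocount added, where both values were above 0 and one reached 1 RPKM. Reads were recovered as the smallest pair of whole numbers that yields the RPKM pair of a feature, for 99.9952% of 20862 features above 0. True reads may be a multiple of them, and intervals are then too wide and the share of reads on features too low. A single read on 1 kb was worth 0.0632 RPKM in the R/r library and 0.0701 RPKM in the r/r library. The steps were tested on simulated data. No test across genes was made.

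Of the members, 44 were named by the table and 6 by Ensembl names. Named genes were members with at least 20 RPKM in either library or at least 1.5-fold apart, NFE2L2, NQO1, HMOX1, GCLC, GCLM, GSR, GSS, CAT and SOD1 to SOD3, the lowest and highest ratio of each role, members listed at 0, and, of each other list, genes at least 1.5-fold apart and the most abundant one. A few genes that the rule takes in are not reported here. Members and lists were chosen with earlier results of these data known. Alternatives were pseudocounts of 0.1 and 1 RPKM, a minimum of 5 or 10 RPKM or none, scaling to TPM, to the upper quartile or to the median ratio, 1 feature per symbol, and members without TXNDC and TXNL4 genes. Counts at the minimum of 10 RPKM were planned, and giving them as shares was added after seeing the data. Also added then were the unnamed transferases, the counts of intervals, and other scalings of those counts and of the other redox genes. A promoter search was planned and not run, since promoter sequences were not used here. Software was scipy 1.17.1, numpy 2.4.6, matplotlib 3.10.9 and pandas 2.3.3 under Python 3.11.15.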

Additional observations from a re-analysis of the deposited data

How the results depend on the processing

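No paired analysis was possible because each genotype had a single library. With no minimum RPKM, 47 members were compared, of which 2 were at least 2-fold apart (GSTT4 at -2.17 from 5 and 1 reads, and the lower TXNL4B feature at 1.098 from 14 and 27 reads), and 3 at least 1.5-fold apart; over all features the numbers were 1483 and 3214. With ratios centred on the median, SOD3 also passed 1.5-fold, which made 2 members, beside 1722 of all features. In the other settings the members' counts kept at 0 and 1. The number of all features at least 2-fold apart was 651 as reported, 317 with 1 RPKM added, 178 and 87 with minimums of 5 and 10 RPKM, and 274 with 1 feature per symbol; at 1.5-fold it was 1771 as reported and 1068, 601, 287 and 870 in the same settings, and 291 had an interval wholly beyond 1.5-fold. The members' median log2 ratio ranged from -0.03 to 0.02, that of GPX3 from -0.89 to -0.83 and that of SOD3 from 0.54 to 0.59. Of the other redox genes, 1 was at least 2-fold apart as reported and 0 when centred on the median, and 7 were at least 1.5-fold apart as reported, 5 when centred on the median or scaled by the upper quartile and 8 when scaled to TPM.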
